A study of Homo sapiens with 7 samples.

Results

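FOXA1 is a forkhead pioneer transcription factor, which can bind its DNA motif in closed chromatin and is known in prostate cells for opening sites that the androgen receptor then uses. LSD1 removes methyl groups from lysines and SETD7 adds them, on histones and on other proteins. LNCaP and 22Rv1 (CWR22-Rv1 in the labels) are established human prostate cancer cell lines that express the androgen receptor, and both were mapped here by chromatin immunoprecipitation sequencing (ChIP-seq) with an anti-FOXA1 antibody.

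The sites described here are those that FOXA1 occupied in LNCaP under every condition mapped and that were absent from every FOXA1 list of 22Rv1. The peaks of the 6 FOXA1 lists on chromosomes 1 to 22 and X were merged wherever they shared at least 1 bp, which gave 172239 union sites on build hg19. Of these, 54840 held a peak of all 3 LNCaP lists, and 19603 of the 54840 held no peak of any of the 3 22Rv1 lists. These 19603 LNCaP-only sites were 11.4% of all union sites and 35.7% of the sites in all 3 LNCaP lists. The members were thus chosen by called peaks, present in LNCaP and absent in 22Rv1, so their counts and LNCaP ranks are a description without a test.

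The LNCaP libraries came from cells kept for 4 h with the LSD1 inhibitor GSK2879552, with a combination of this agent and the SETD7 inhibitor PFI-2, or with DMSO. The third library is taken as the combination from its title, since its treatment label names PFI-2 as present or absent. The 22Rv1 FOXA1 libraries came from cells with a hairpin against SETD7 (shSETD7), with a control hairpin (shCTL), and from vehicle cells, whose peak names carry the tag siNTC. SETD7 itself was mapped in vehicle 22Rv1 cells. The lines were not treated alike and each group is 1 library, so a difference between lines cannot be told apart from one between libraries. On the chromosomes used, the lists held 63866 peaks with GSK2879552, 83352 with the combination and 79741 with DMSO in LNCaP, against 63682 with shSETD7, 83633 with shCTL and 65093 with vehicle in 22Rv1. A site without a called peak is not shown to be unbound, and the depth of the libraries is unknown here. Intervals in brackets are exact 95% binomial (Clopper-Pearson) intervals and cover counting error only. Sites are named by their hg19 positions, since no annotation or sequence of that build was used here.

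Most LNCaP-only sites held a single peak of each LNCaP list. Peaks of all 3 lists had at least 1 base in common at 19591 of the 19603 sites, which the rule nearly fixes, and at 12 sites they were joined only in a chain. The sites had a median width of 377 bp, from 208 to 1227 bp. More than 1 peak of a list fell in the site at 200 of them, most often in the GSK2879552 list (135 sites, against 43 with the combination and 53 with DMSO).

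Few LNCaP-only sites bordered on a 22Rv1 FOXA1 peak, but no background share was taken, so these distances are a description. The nearest peak of any of the 3 22Rv1 lists was at a median distance of 9.03 kb, with quartiles at 3.80 and 19.9 kb. It was within 1 kb at 1470 sites, or 7.50% (7.13 to 7.88), and beyond 100 kb at 299 sites. Taken singly, the shSETD7, shCTL and vehicle lists came within 1 kb of 725, 863 and 717 sites. At the limit of the rule, 14 members had a 22Rv1 peak at 25 bp or less without overlap, and 16 sites were left out for an overlap of 25 bp or less. Their median percentiles in the GSK2879552, combination and DMSO lists were 43.8, 54.2 and 51.7 just inside the rule, and 38.1, 54.0 and 57.3 just outside it. A percentile is the share of a list's peaks with a lower score. The scores are the authors' own values, and those of different lists are not on a common scale.

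The other sites of all 3 LNCaP lists were shared with 22Rv1 to different extents. Exactly 1 of the 22Rv1 lists held 9079 of them, 2 lists held 11627, and all 3 lists held 14531, the sites of all 6 FOXA1 lists. The shCTL list was the one most often alone in holding a site (5229 sites), followed by vehicle (2802) and shSETD7 (1048). Of the 11627 sites that a single 22Rv1 list lacked, 8493 lacked only the shSETD7 peak. Over all sites of the 3 LNCaP lists, shSETD7 also held the smallest share, 34.1%, against 56.0% for shCTL and 48.4% for vehicle.

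LNCaP-only sites were mostly of middle rank within the whole combination and DMSO lists, while sites of all 6 lists were concentrated at the top. In the GSK2879552 list the LNCaP-only sites stood lower, with 41.6% of them in its upper 50%. The median percentile of the LNCaP-only sites was 43.3 with GSK2879552, 58.0 with the combination and 55.7 with DMSO. For the sites of all 6 lists it was 74.4, 77.4 and 76.2 in the same lists. All sites of the 3 LNCaP lists, which met the same LNCaP rule, had medians of 56.7, 66.7 and 65.0. Beside these, the LNCaP-only medians were low. The middle 50% of the LNCaP-only sites spanned percentiles 23.3 to 64.0 with GSK2879552, 40.8 to 73.3 with the combination and 37.0 to 71.9 with DMSO. Sites shared with 1 or 2 of the 22Rv1 lists stood in between, with DMSO medians of 64.0 and 72.2.

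**Figure D1:**
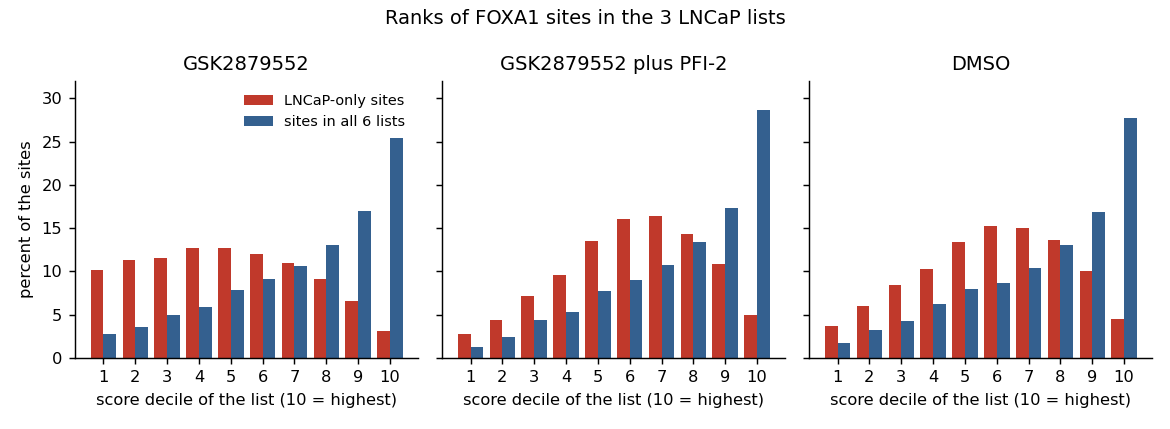
Share of sites (percent, vertical axis) in each score decile of the GSK2879552, combination and DMSO lists of LNCaP, for the 19603 LNCaP-only sites (red) and the 14531 sites of all 6 lists (blue). The red bars peak at deciles 4 to 7 and drop to 3.09%, 4.97% and 4.54% in the highest decile, where the blue bars reach 25.4%, 28.6% and 27.7%.

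A minority of LNCaP-only sites was nevertheless strong. In the highest decile of each list stood 605 LNCaP-only sites with GSK2879552, or 3.09% of them, 975 with the combination (4.97%) and 889 with DMSO (4.54%). Among all sites of the 3 LNCaP lists the highest decile held 11.6% with GSK2879552, 15.2% with the combination and 14.5% with DMSO. At the other end, the lowest decile held 1993 LNCaP-only sites with GSK2879552 (10.2%), 529 with the combination (2.70%) and 729 with DMSO (3.72%). Among all sites of the 3 LNCaP lists that decile held 6.75%, 1.99% and 2.65% in the same order of lists, so the GSK2879552 share was high in all sites too.

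When the 54840 sites were ordered by their mean rank over the 3 lists, the LNCaP-only share was lower in each higher decile. It was 51.3% (49.9 to 52.6) in the lowest decile, 42.6% in the fifth and 8.79% (8.05 to 9.57) in the highest. The share in all 3 22Rv1 lists ran the other way, with 15.4% in the lowest decile and 57.2% in the highest. Of the 1000 sites with the highest mean rank, 38 were LNCaP-only (3.80%, 2.70 to 5.18) and 725 were in all 6 lists. Of the top 100, 2 were LNCaP-only and 90 were in all 6 lists.

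**Figure D2:**
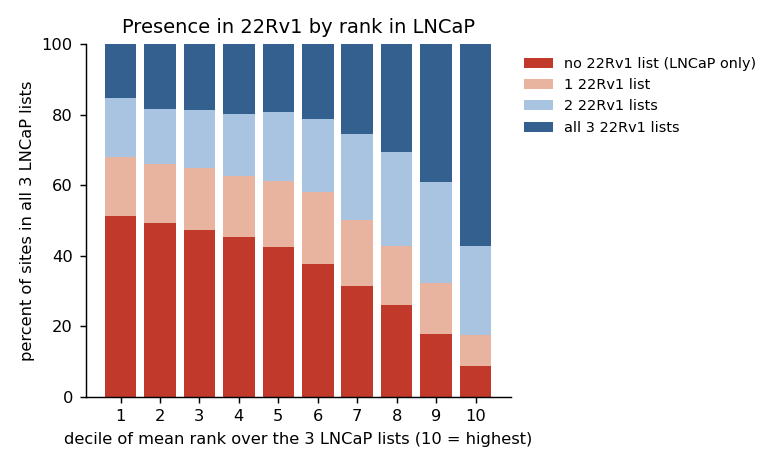
Share of the sites in all 3 LNCaP lists (percent, vertical axis) that were peaks in none, 1, 2 or all 3 of the 22Rv1 FOXA1 lists, by decile of the mean rank in LNCaP (horizontal axis, 10 is highest). The LNCaP-only share (red) is 51.3% in the lowest decile and 8.79% in the highest.

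The strongest LNCaP-only site was at chr1:14825254-14825840 on hg19, with scores of 2412 with GSK2879552, 2704 with the combination and 2551 with DMSO. The highest score in each whole list was 3130, 3780 and 3636. Its nearest 22Rv1 FOXA1 peak was 37.1 kb away. The site at chr9:98802995-98803603 scored 2243, 2728 and 2586 in the same order of lists, and a 22Rv1 peak lay 8.73 kb away. The site at chr16:70993993-70994540 scored 2306, 2565 and 2424, and a 22Rv1 peak lay 7.44 kb away. All 3 sites stood between percentiles 99.8 and 99.9 in each LNCaP list.

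The next 7 by mean percentile were on chromosomes 20, 14, 13, 10, 10, 6 and 14. Among them, chr20:15842672-15843340 scored 1977 with GSK2879552, 2790 with the combination and 2228 with DMSO, with the nearest 22Rv1 peak at 42.9 kb. The site at chr14:91521360-91521885 scored 1777, 2566 and 2309 in that order, with a 22Rv1 peak at 2.26 kb, the closest of the 10. The site at chr10:132143817-132144483 scored 1801, 2449 and 2196, with the nearest 22Rv1 peak at 43.8 kb, the farthest of the 10. None of the 10 overlapped a SETD7 peak, where 0.296% of all LNCaP-only sites and 1.12% of all sites of the 3 LNCaP lists did so.

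The drug conditions were then compared at the LNCaP-only sites. To remove the effect of list length on percentiles, each site was ranked among the 54840 sites of all 3 lists, from 0 for the lowest score to 100 for the highest. On this scale the LNCaP-only sites had a median rank of 35.7 with GSK2879552 and 37.9 with DMSO. The sites of all 6 lists had a median of 70.2 with GSK2879552 and 65.5 with DMSO. With the combination the medians were 38.0 for LNCaP-only sites and 65.7 for sites of all 6 lists, close to their DMSO medians.

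The median change of rank with GSK2879552 against DMSO was −0.19 points over all LNCaP-only sites, of which 49.5% ranked higher and 50.5% lower. It was 2.52 points over the sites of all 6 lists, and −0.95 and −0.77 points over sites shared with 1 and 2 of the 22Rv1 lists. The LNCaP-only sites were thus not the class with the lowest median change. Site by site, the rank was lower by over 10 points with GSK2879552 than with DMSO at 5676 LNCaP-only sites (29.0%), and higher by over 10 points at 5097 (26.0%). Among all sites of the 3 lists these shares were 24% and 25.8%. Among the sites of all 6 lists they were 12.1% and 29.3%. Sites shared with 1 of the 22Rv1 lists gave 30.2% and 24.2%, and those shared with 2 gave 25.8% and 22.3%. With the combination against DMSO, 3927 LNCaP-only sites (20.03%) were lower and 4016 (20.5%) higher by over 10 points, where 17% and 16.9% of all sites of the 3 lists did so. The GSK2879552 and combination comparisons share the DMSO library, so they are not independent.

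Within deciles of the DMSO rank, LNCaP-only sites were compared with sites of all 6 lists. Sites shared with 1 or 2 of the 22Rv1 lists were not included. The median DMSO ranks, 37.9 for LNCaP-only sites and 65.5 for sites of all 6 lists, differ. The part of that difference in these values was not tested. With GSK2879552 the LNCaP-only median change was above 0 in deciles 1 to 3, at 9.90, 5.12 and 0.24 points, and below 0 in deciles 4 to 10. The change was taken from the same DMSO rank that set the deciles. A rise in low deciles and a fall in higher ones can follow from that, and its part was not tested. With the combination the LNCaP-only median change was 5.90 points in decile 1 and −2.76 in decile 5. The sites of all 6 lists had 6.34 and −0.78 points there. In the sixth decile of DMSO rank the median change with GSK2879552 was −6.43 points at LNCaP-only sites and 7.46 points at sites of all 6 lists. In the second decile it was 5.12 points at LNCaP-only sites and 14.7 points at sites of all 6 lists. In the highest decile it was −1.31 points at LNCaP-only sites and −0.09 points at sites of all 6 lists, the narrowest gap of the 10. With the combination the sixth decile gave −2.88 points at LNCaP-only sites and −0.12 points at sites of all 6 lists. The difference between the classes there was −13.9 points with GSK2879552 and −2.76 with the combination, each from 1 library against 1 DMSO library, with no replicate check. For the combination this was the widest gap. Its sign turned in deciles 2 to 4, at 0.16, 0.13 and 0.06 points.

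**Figure D3:**
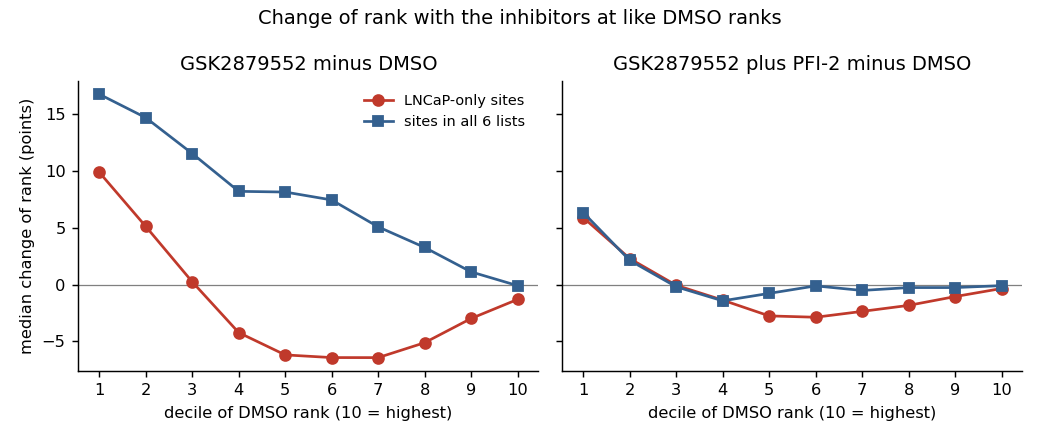
Median change of rank against DMSO (points on a scale of 0 to 100, vertical axis) with GSK2879552 and with GSK2879552 plus PFI-2, by decile of the DMSO rank (horizontal axis), for LNCaP-only sites (red) and sites of all 6 lists (blue). With GSK2879552 the red line lies below the blue one in each of the 10 deciles, by 13.9 points in the sixth. With the combination the lines are at most 2.76 points apart, and the red one is slightly higher in deciles 2 to 4.

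With GSK2879552 the LNCaP-only sites had the lower median change on nearly all chromosomes. All chromosomes come from the same GSK2879552 and DMSO libraries, so they are not replicates. The DMSO ranks were not matched in these medians, and sites shared with 1 or 2 of the 22Rv1 lists were not included. The median change of rank with GSK2879552 was lower for LNCaP-only sites than for sites of all 6 lists on 22 of 23 chromosomes; the exception was chromosome 22, with 2.61 and 2.52 points. By chromosome, the LNCaP-only medians ran from −1.71 (chromosome X) to 3.25 points (chromosome 19), and those of the sites of all 6 lists from 1.60 to 5.22 points. The LNCaP-only median was below 0 on 14 of 23 chromosomes, and that of the sites of all 6 lists was above 0 on all 23. With the combination the LNCaP-only median was the lower one on 9 of 23 chromosomes.

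The 22Rv1 lists that held a site were then told apart, first in deciles 4 to 7 of the DMSO rank. This range belongs to a comparison added after these data were examined. It holds the widest gaps between LNCaP-only sites and sites of all 6 lists with GSK2879552, from −11.5 to −14.4 points. In these deciles, the median change with GSK2879552 was −5.76 points at 8777 LNCaP-only sites. It was −7.90 points at 2402 sites whose only 22Rv1 list was shCTL. At 3250 sites held by vehicle and shCTL and absent from shSETD7 it was −1.72 points, and at 1251 sites held by vehicle alone −0.19 points. Sites held by the shSETD7 list had 2.60 points where it was the only 22Rv1 list (422 sites), 8.02 points with vehicle (273 sites) and 6.81 points with both others (4633 sites). With shCTL and shSETD7 together the value was −0.91 points (928 sites). For each combination of vehicle and shCTL, adding the shSETD7 peak went with a higher value, and the values with GSK2879552 plus PFI-2 lay between −2.56 and 0.48 points in all 8 classes. Over all DMSO ranks the values with GSK2879552 were −0.19 points at LNCaP-only sites, −3.41 with shCTL alone, −1.72 with vehicle and shCTL, 1.76 with vehicle alone and 1.45 with shCTL and shSETD7. The sign for vehicle alone and for shCTL with shSETD7 thus turned with the choice of deciles. The other classes with shSETD7 stood at 3.50 (shSETD7 alone), 5.64 (with vehicle) and 2.52 points (with both).

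**Figure D4:**
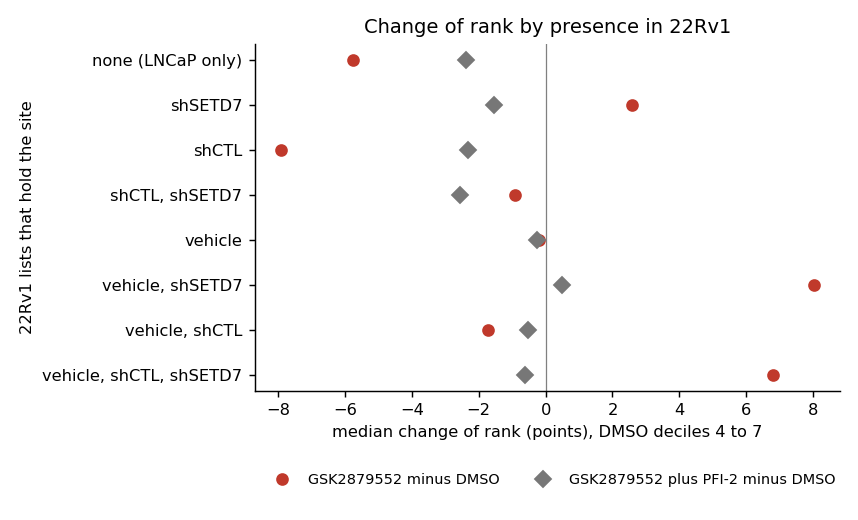
Median change of rank against DMSO (points, horizontal axis) in deciles 4 to 7 of the DMSO rank, with GSK2879552 (circles) and with GSK2879552 plus PFI-2 (diamonds), by the 22Rv1 FOXA1 lists that hold the site (vertical axis). The LNCaP-only sites are at −5.76 and −2.38 points, against −0.19 and 0.02 points over all DMSO ranks. The circles spread from −7.90 to 8.02 and the diamonds from −2.56 to 0.48.

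Single LNCaP-only sites differed between conditions by far more than the medians. The 5 sites with the largest lower percentile with GSK2879552 are given on the rank scale of the 54840 sites. The first, at chr14:106788251-106788767, had rank 0.274 with GSK2879552, 68.5 with the combination and 76.3 with DMSO. The site at chr1:233467079-233467674 had rank 2.41 with GSK2879552, 73.9 with the combination and 80.7 with DMSO. The other 3 of the 5, at chr9:85133770-85134347, chrX:18973354-18974110 and chr2:15163368-15163909, ranked between 0.142 and 1.20 with GSK2879552, between 56.8 and 71.7 with the combination, and between 70.0 and 74.0 with DMSO. At these 5 sites the rank with the combination differed from that with DMSO by −13.2 to −2.27 points. The 5 were chosen as extremes of GSK2879552 against DMSO, with 1 library each. A combination rank nearer to DMSO can follow from that choice, and its part was not tested.

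The site with the largest higher percentile with GSK2879552 was at chr2:103252665-103253013, with ranks of 61.0 with GSK2879552, 34.8 with the combination and 0.916 with DMSO. At chr15:78109857-78110220 the ranks were 69.9, 54.6 and 3.98 in that order. At chr12:108323200-108323525 they were 53.6, 6.04 and 1.59, and this was the one of the 5 where the combination stood nearer to DMSO than to GSK2879552. The 2 remaining sites were at chr1:146127879-146128169 and chr1:98837359-98837713, with GSK2879552 ranks of 56.9 and 50.8, combination ranks of 33.1 and 33.4, and DMSO ranks of 2.59 and 0.994. These 5 were likewise chosen as extremes, and the part of that choice in their combination ranks was not tested.

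Peak widths at LNCaP-only sites followed those of the lists. The strongest peak of a site had a median width of 252 bp with GSK2879552, 349 bp with the combination and 342 bp with DMSO, against 306, 390 and 387 bp at the sites of all 6 lists. It was narrower with GSK2879552 than with DMSO at 92.5% of LNCaP-only sites, where all sites of the 3 lists gave 93.3%. With the combination it was narrower at 44.5%, against 45.6%. These shares are near those of all sites, so the narrowing was a feature of the whole GSK2879552 list.

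LNCaP-only sites were spread thinly, with a tendency to stand next to each other. The median distance to the nearest other LNCaP-only site was 37.4 kb (quartiles 14.7 and 82.2), and 4242 of them, or 21.6% (21.1 to 22.2), had another within 12500 bp. For all sites of the 3 LNCaP lists that share was 42.8%, and for the fewer sites of all 6 lists 15.8%. Because these shares move with the number of sites in a class, neighbours were also compared among the sites of all 3 lists. Where consecutive sites were at most 12500 bp apart, 44.7% of the neighbours of an LNCaP-only site were LNCaP-only too, against 29.6% of the neighbours of a site of all 6 lists, and 35.8% of all sites in such pairs.

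The LNCaP-only share among neighbours of LNCaP-only sites was highest at the shortest distances, and did not fall steadily beyond them. At gaps of up to 1 kb, 52.8% of the neighbours of an LNCaP-only site (931 neighbours) were LNCaP-only, against 23.1% of those of a site of all 6 lists (637 neighbours). From 1 to 5 kb the shares were 41.8% and 31.4%, from 5 kb to 12500 bp 44.7% and 29.7%, and from 200 to 1000 kb 41.6% and 27.4%. Neighbouring sites are not independent of each other.

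Chained at gaps of up to 12500 bp, the members formed 15361 single sites, 1669 pairs, 229 triplets and 52 clusters of 4 or more. Of these 52, 35 had no 22Rv1 FOXA1 peak inside. The rule already excludes such peaks at the members, and no background share for like spans was taken, so this count is a description. The cluster with the most members, 6, spanned 33.2 kb at chr18:10223507-10256679 and had a mean percentile of 33.7. It had 1 shCTL peak inside. On the rank scale of the 54840 sites its members ran from 7.99 to 38.9 with GSK2879552, from 4.196 to 44.8 with the combination, and from 1.24 to 40.3 with DMSO.

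The strongest of the large clusters had 5 members in 16.9 kb at chr16:22729190-22746107 and no 22Rv1 peak inside. Its ranks ran from 62.9 to 89.7 with GSK2879552, from 57.9 to 95.1 with the combination, and from 55.3 to 92.0 with DMSO, so the 3 conditions overlapped. A cluster of 5 at chr8:62933540-62959618 ranked from 30.2 to 82.2 with GSK2879552, from 50.6 to 90.4 with the combination, and from 56.4 to 91.9 with DMSO, and had 1 peak of each 22Rv1 list in the gaps. At chr9:5352159-5379757, again 5 members, the ranks ran from 0.676 to 65.9 with GSK2879552, from 56.8 to 82.3 with the combination, and from 57.4 to 84.0 with DMSO. In both of these clusters the ranges overlapped, while each of the 5 members ranked lower with GSK2879552 than with DMSO. Of all LNCaP-only sites, 50.5% did so. The members of a cluster come from the same libraries, so they are not replicates. The fifth cluster, at chr17:76383965-76405669, ranked from 5.40 to 85.5, from 17.7 to 87.0 and from 10.7 to 85.1 in the same order of lists.

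Some stretches of the genome held many LNCaP-only sites and no 22Rv1 FOXA1 peak at all; these were picked after their counts were seen. The fullest one ran for 485 kb at chr2:177176502-177661421 and held 19 LNCaP-only sites, with 22 peaks with GSK2879552, 23 with the combination and 24 with DMSO. The next were at chr4:23649119-24139895 and chr10:130935289-131255799, with 12 LNCaP-only sites each. Then came chr20:51341471-51774646 with 11 and chr5:53883296-54302901 with 10. Most members did not lie in such stretches: 12183 were the single LNCaP-only site between 2 neighbouring 22Rv1 peaks.

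By chromosome, the LNCaP-only share of the sites in all 3 LNCaP lists ran from 25.9% to 44.3%. It was highest on chromosomes 15 (44.3%, 41.9 to 46.6), 20 (43.1%, 40.4 to 45.9) and 18 (42.2%, 39.7 to 44.8), whose intervals overlap. It was lowest on chromosomes 19 (25.9%, 22.9 to 29.1), 12 (27.5%, 25.8 to 29.2) and 7 (29.3%, 27.7 to 31.0), whose intervals also overlap. The largest numbers of LNCaP-only sites were on chromosomes 2 (1595), 1 (1467) and 5 (1462).

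The share ran against the number of 22Rv1 peaks on a chromosome, which the rule itself links to it. Chromosome 15 had 0.611 vehicle 22Rv1 peaks per LNCaP DMSO peak, against 0.965 on chromosome 19 and 1.08 on chromosome 12. On chromosomes 1, 3, 7, 8 and 12, where SETD7 peaks of 22Rv1 are also concentrated, 30.5% of the sites in all 3 LNCaP lists were LNCaP-only (29.8 to 31.2), against 38.3% on the other chromosomes (37.8 to 38.8). These 5 chromosomes held 27.5% of the LNCaP-only sites (26.9 to 28.1) and 36.1% of the sites of all 6 lists (35.3 to 36.8). The gap was present at every DMSO rank, from 43.7% against 52.0% in the lowest decile to 7.03% against 9.87% in the highest. On chromosome 1 the LNCaP-only share was 36.3% before position 120 Mb (34.4 to 38.3) and 24.7% after it (23.02 to 26.5).

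**Figure D5:**
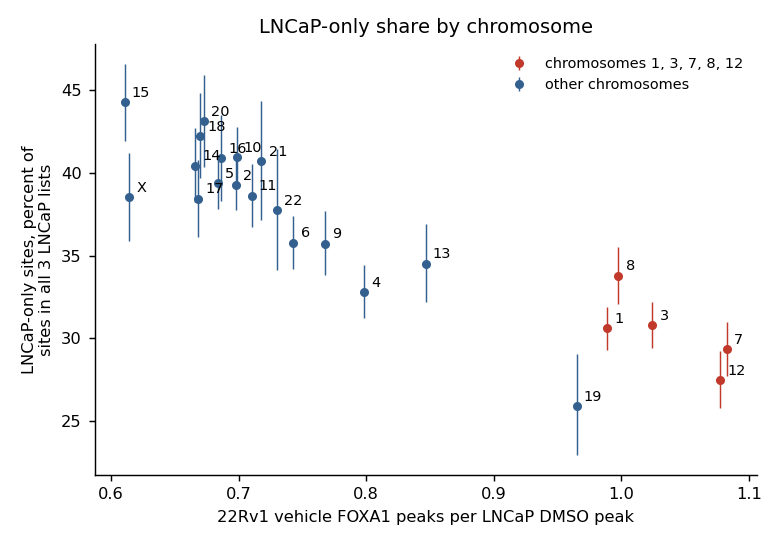
LNCaP-only sites as a percent of the sites in all 3 LNCaP lists (vertical axis, bars are exact 95% binomial intervals) against the number of vehicle 22Rv1 FOXA1 peaks per LNCaP DMSO peak (horizontal axis), 1 point per chromosome. Chromosomes 1, 3, 7, 8 and 12 (red) lie between 27.5% and 33.8%, and of the others (blue) only chromosomes 19 and 4 lie below 33.8%.

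Within chromosomes the share varied more. Over the 572 windows of 5 Mb with at least 30 sites in all 3 LNCaP lists, the median LNCaP-only share was 35.0%, with quartiles at 28.7% and 41.8%. It was above 50% in 56 windows and below 20% in 41. Neighbouring windows were alike (r = 0.44 over 535 pairs), and the share ran against the number of vehicle 22Rv1 peaks per DMSO peak (r = −0.70 over 572 windows). These windows share libraries and the lists that define the sites, so both are descriptions.

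The highest share was in the window from 130 to 135 Mb of chromosome 11, where 66 of 91 sites were LNCaP-only (72.5%, 62.2 to 81.4). Its FOXA1 peaks numbered 98 with GSK2879552, 116 with the combination and 115 with DMSO in LNCaP, against 40 with shSETD7, 35 with shCTL and 37 with vehicle in 22Rv1. The next were chromosome 5 from 5 to 10 Mb (48 of 68 sites), chromosome 10 from 130 to 135 Mb (73 of 106), chromosome 2 from 115 to 120 Mb (46 of 67) and chromosome 17 from 10 to 15 Mb (57 of 84). In all 5 windows each LNCaP list held more peaks than any 22Rv1 list. At the other end stood chromosome 13 from 85 to 90 Mb (4 of 48 sites, 8.33%) and from 65 to 70 Mb (4 of 43), chromosome 19 from 10 to 15 Mb (5 of 58), chromosome 21 from 10 to 15 Mb (3 of 32) and chromosome 3 from 85 to 90 Mb (8 of 74). In the lowest window the LNCaP lists held 52 peaks with GSK2879552, 76 with the combination and 79 with DMSO, against 34 with shSETD7, 123 with shCTL and 111 with vehicle in 22Rv1, so the shSETD7 list stood below each LNCaP list there.

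SETD7 peaks were not used to choose the sites and were rare at them. Of the 19603 LNCaP-only sites, 58 overlapped a SETD7 peak of vehicle 22Rv1 cells, or 0.296% (0.225 to 0.382). The share was 0.584% for sites shared with 1 of the 22Rv1 FOXA1 lists, 0.937% with 2, and 2.70% (2.45 to 2.98) for the sites of all 6 lists, and it was 1.12% for all sites of the 3 LNCaP lists. Over all union sites it was 2.80% (2.73 to 2.88), and over those other than LNCaP-only 3.13%, so the sites of all 6 lists stood near the overall share. The LNCaP-only share stayed below that of the sites of all 6 lists in each decile of the DMSO rank, at 0.480% against 4.11% in the lowest and 0.615% against 1.26% in the highest. The highest decile rests on 3 LNCaP-only sites and 38 sites of all 6 lists with a SETD7 peak. SETD7 was mapped in 22Rv1, the line from which absence of FOXA1 peaks was required.

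The SETD7 scores at the 58 sites had a median of 25, at a median percentile of 40.8 of the SETD7 list, and ran from 13 to 377. The whole list had a median of 28 and a maximum of 116716. The highest was at chr5:99388498-99388806, with a SETD7 score of 377 and FOXA1 scores of 253 with GSK2879552, 194 with the combination and 157 with DMSO. The next, at chr21:11071037-11071450, had a SETD7 score of 240. The third and the fifth were also strong FOXA1 sites. These were chr9:70836737-70837691 (SETD7 score 110; FOXA1 scores 731, 964 and 1096 in the order above) and chr15:91041152-91041623 (83; 1314, 1669 and 1352). The fourth, at chr17:25289179-25289492, had a SETD7 score of 85. On chromosomes 1, 3, 7, 8 and 12 lay 30 of the 58 (51.7%, 38.2 to 65.0), against 27.5% of all LNCaP-only sites and 70.2% of all SETD7 peaks used.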

How the data were processed

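FOXA1 was mapped in 6 libraries and SETD7 in 1, with 1 peak list per library. The submitters' processing notes name build hg19, the peak caller MACS2 2.1.4, the aligner BWA 0.7.17-r1188, and SAMtools 1.9 and FastQC 0.11.9. The caller's settings and control are not stated there. The deposited lists hold 1 whole-number score per peak, made by the authors, whose definition is not given. Depth is unknown, and list length depends on it. Groups follow the sample titles. With 1 library per group, no test between groups and no replicate error was available.

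Peaks on chromosomes 1 to 22 and X were merged at 1 bp of overlap. Where a site held several peaks of a list, the highest score was used; tied scores shared a mid-rank. Ranks among the 54840 sites of all 3 LNCaP lists were computed separately in each list. Clusters joined sites at gaps of up to 12500 bp. The site code gave the same 172239 union sites and 19603 LNCaP-only sites as bedtools 2.31.1, and was tested on simulated data. The scripts ran on Python 3.11.15 with matplotlib 3.10.9, scipy 1.17.1, pandas 2.3.3 and numpy 2.4.6.

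The sites named are the 10 LNCaP-only sites with the highest mean percentile, the 5 clusters with the most members (ties by mean percentile), 5 sites for each direction of percentile change with GSK2879552, 5 windows at each end of the share, and the 5 highest SETD7 scores. The members, these rules and the comparison classes were chosen with earlier results of these data known. The classes by 22Rv1 list and the stretches without 22Rv1 peaks were added after these data were examined. Counts near gene lists and motif shares needed an hg19 annotation or sequence and were not analysed here. Alternatives were other overlap rules, shorter lists, and leaving lists out.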

Additional observations from a re-analysis of the deposited data

How the results depend on the processing

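Of 81 alternatives over 10 results, 31 left the value within its 95% interval (for the count, within 1.5 times) and 50 did not. Leaving out the vehicle or the GSK2879552 list was chosen after seeing the data, as were all alternatives for width and distance. The count of LNCaP-only sites (19603) came to 6863 in the higher-scoring 50% of the LNCaP lists and 29466 without the GSK2879552 list. Their share of the sites in all LNCaP lists (35.7%) was 33.4% with peaks joined within 1 kb, 33.1% without sites that had a 22Rv1 peak within 1 kb, 38.0% for DMSO peaks with reciprocal 50% overlap, 24.7% in the higher-scoring 50%, 36.7% with lists of 63682 peaks each, 37.7% without the shSETD7 list, 40.9% without the vehicle list and 42.0% without the GSK2879552 list. Under reciprocal overlap, the higher-scoring 50%, equal-sized lists and no vehicle list, in that order, median percentiles were 45.3, 41.6, 48.6 and 45.1 with GSK2879552, 58.6, 55.2, 51.2 and 59.0 with the combination, and 56.3, 52.2, 51.0 and 56.8 with DMSO. Without the GSK2879552 list they were 46.8 with the combination and 44.5 with DMSO. Percentiles in shortened lists were taken anew within them. With equal-sized lists the GSK2879552 median was thus 2.44 points below the DMSO one, against 12.3 for the lists as deposited.

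The share with another LNCaP-only site within 12500 bp (21.6%) was 18.9% with peaks joined within 1 kb, 20.8% without sites near 22Rv1 peaks, 9.92% for the higher-scoring 50%, 19.9% when all lists had equal size, 22.6% without shSETD7, 23.4% without vehicle and 29.3% without GSK2879552; it was 7.74% at 5 kb and 59.4% at 50 kb. The share on chromosomes 1, 3, 7, 8 and 12 (27.5%) was 26.5% with joining within 1 kb, 26.5% without sites near 22Rv1 peaks and 28.3% without vehicle. The median DMSO peak width (342 bp) was 344 bp with joining within 1 kb, 339 bp with reciprocal overlap, 390 bp for the higher-scoring 50%, 357 bp when all lists had equal size, 344 bp without vehicle and 320 bp without GSK2879552. The median distance to a 22Rv1 peak (9.03 kb) was 10.1 kb with joining within 1 kb and 10.1 kb without sites near 22Rv1 peaks, 8.12 kb with reciprocal overlap, 9.74 kb for the higher-scoring 50%, 9.92 kb when all lists had equal size, 11.1 kb without shSETD7, 10.3 kb without vehicle and 8.82 kb without GSK2879552. The SETD7 share stayed within its interval under all 8 of its alternatives. Shortened lists and other joining rules hold fewer or other sites by design; for the rest, the cause was not tested. No paired analysis was possible because each group has 1 library. Depth, unknown here, limits every statement of absence.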

Other observations

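LNCaP sites found under only some of the conditions were, in each of the 6 such patterns, more often absent from 22Rv1 than the sites of all 3 LNCaP lists, 35.7% of which had no 22Rv1 FOXA1 peak. Of the 15331 sites with the combination and DMSO but not GSK2879552, 9860 (64.3%) had none. Of the 1702 sites with GSK2879552 and DMSO but not the combination, 709 (41.7%) had none, and of the 3173 with GSK2879552 and the combination but not DMSO, 1510 (47.6%) had none. Sites found in a single LNCaP list had no 22Rv1 peak in 46.9% of cases for GSK2879552, 66.8% for the combination and 66.8% for DMSO. Those without a 22Rv1 peak were weak, with median percentiles from 10.97 to 26.4 in the lists that held them. The 35.7% covers all ranks, and the patterns were not matched to it by rank. In the lowest rank decile of the sites of all 3 LNCaP lists, more sites had no 22Rv1 peak. The share there was 53.6% by GSK2879552 rank, 47.8% by combination rank and 49.4% by DMSO rank. All patterns with GSK2879552 lay below these 3 shares.

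Among LNCaP sites without a 22Rv1 FOXA1 peak, those of the GSK2879552 list alone overlapped SETD7 peaks most often, at 18 of 1510 sites (1.19%, 0.708 to 1.88). The LNCaP-only sites of all 3 lists did so at 0.296%, those of the combination alone at 0.0967% and those of DMSO alone at 0.186%. All of these shares were below the 2.80% of all union sites. The patterns were picked after their values were seen and were not matched by rank.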
